A study of Mus musculus with 4 samples.

Results

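The variable (V) segments of the T cell receptor alpha chain were taken as every gene row of the deposited matrices whose symbol starts with Trav, which gave 128 of 32285 gene rows. All 128 were found by symbol in RefSeq on the GRCm38.p6 assembly, where they lie on chromosome 14 between positions 52427967 and 53977678. The cells were Foxp3-expressing regulatory T (Treg) cells of visceral adipose tissue (VAT) in male mice, sorted as live CD3+ CD4+ Foxp3+ and profiled by droplet RNA sequencing from the 5′ end, in 2 separate experiments. The Srebf2 pool mixed cells of 4 Foxp3YFP-cre Srebf2WT/WT mice (WT) with cells of 4 Foxp3YFP-cre Srebf2flox/flox mice (KO), all aged 25 weeks and at steady state. Both arms thus carry the Cre recombinase, which is expressed from the Foxp3 locus. The diet pool mixed cells of 5 Foxp3thy1.1 PpargTdt mice on normal chow (NCD) with cells of 5 such mice fed a high-fat diet (HFD), which lasted 22 weeks, at an age of 23 to 27 weeks. An oligonucleotide-tagged antibody (hashtag) marked each condition before mixing. The mice behind a hashtag cannot be told apart, so each condition is 1 pooled sample, no difference has a replicate check, and no test was run. All intervals below are exact 95% intervals that cover counting error only.

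The alpha locus holds a long array of V segments followed by joining (J) segments and a constant gene, Trac. In the thymus a developing T cell joins a V to a J segment, and all daughters of that cell inherit the same joined gene. A clone of T cells therefore shows itself as many cells with the same V segment. Both chromosomes can rearrange, so a T cell can carry a pair of alpha chains, whereas the beta chain is more strictly limited to a single one. Part of the mouse array is duplicated, which gave copies marked d and n in the symbols, and symbols that contain dv belong to segments that can also join to the delta chain. Reads of near-identical copies can be split between rows or lost in counting, so single d, n and unlettered copies carry that uncertainty throughout. The references used here held no nucleotide or protein sequence of the segments, so none is printed, and joined V-J sequences were not analysed here.

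After the filters 3490 WT, 3956 KO, 4938 NCD and 4512 HFD cells were kept, with 14010241 to 22200627 unique molecular identifiers (UMIs, single captured RNA molecules) per condition. The medians were 3589.5 UMIs per cell in WT and 3640.5 in KO, 3989 in NCD and 3193.5 in HFD. Srebf2, the targeted gene, stood at 65.7 counts per 10⁶ UMIs (CPM) in WT and 3.95 CPM in KO cells, a KO to WT ratio of 0.0602 (0.0461 to 0.0775). The T cell markers Cd3e, Cd3d, Cd3g and Cd4, and the Treg markers Foxp3, Il2ra, Ikzf2, Ctla4 and Tnfrsf18, stood at 162 CPM or more in every condition. The receptor constant genes Trac, Trbc1 and Trbc2 were lowest in NCD, at 114, 39.4 and 150 CPM. Il2ra and Foxp3 were lower in HFD, with HFD to NCD ratios of 0.294 and 0.762, and Il2ra was found in 34.0% of HFD against 77.7% of NCD cells. These levels moved with the segment differences between the diets, and their part in those was not tested. Markers of B cells and macrophages other than Cd79b, Cd68 and Ighm stayed at or under 1.28 CPM, and Ighm ranged from 79.8 CPM in WT to 251 CPM in HFD. The erythroid gene Hbb-bs stood at 322 CPM in WT and 55.2 in KO, 70.2 in NCD and 239 in HFD. The delta constant gene Trdc stayed at or under 1.73 CPM. After the filter on Cd8a, the CD8 gene Cd8b1 was still found in 4.23% (NCD) to 5.84% (KO) of cells. The natural killer cell genes Ncr1, Klrb1c and Klre1 were highest in NCD, at 5.23, 3.83 and 2.57 CPM, each in 0.648% of cells or less. Of the barcodes, 135 occurred in both pools, 87 of them among kept cells.

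A Trav UMI was found in 65.8% of WT cells (64.2 to 67.3%) and 77.6% of KO cells (76.3 to 78.9%), 81.3% of NCD cells (80.2 to 82.4%) and 71.3% of HFD cells (69.9 to 72.6%). With every cell thinned to 2000 UMIs, which left out 307 WT, 311 KO, 286 NCD and 711 HFD cells, the shares were 53.0%, 67.1%, 68.3% and 61.3% in the same order. KO stayed above WT and NCD above HFD. In droplets with Cd79a and Ms4a1 UMIs and no Cd3 UMIs, which should hold B cells, 1 of 34 WT and 1 of 27 KO barcodes, and 3 of 92 NCD and 0 of 58 HFD barcodes had a Trav UMI, at medians of 2956.5 to 4960 UMIs. A count of 0 of 58 allows a share of up to 6.16% by the exact interval. The shares in the kept cells lie far above these. Summed over segments there were 8097 Trav UMIs in WT (578 CPM), 15164 in KO (922 CPM), 17096 in NCD (770 CPM) and 13245 in HFD (714 CPM). For the beta chain, Trbv UMIs were found in 85.0% of WT and 87.2% of KO cells, and in 85.9% of NCD and 91.1% of HFD cells, so the order of conditions differed between the chains.

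Of the 128 segments, 111 had a UMI in some condition, 83 had one in all 4 conditions and 17 had none. The 17 at 0 were mostly lettered copies, such as Trav11d, but included the unlettered rows Trav22, Trav4-1 and Trav12-4. Each of 66 segments reached 20 cells in at least 1 condition. The counts of differing segments below used those with 20 or more cells in either group compared. Summaries of how cells spread over segments, families and pairs used all 128 rows.

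Trav6-3 was the most widely detected row, with 268 WT, 420 KO, 509 NCD and 96 HFD cells, at 1.29 to 1.88 UMIs per detecting cell. In 79.2% of its detections another segment had as many UMIs in the cell or more. Trav4-4-dv10 followed, with 82 WT, 215 KO, 615 NCD and 191 HFD cells and 2.87 to 4.46 UMIs per detecting cell. Those 2 rows show why detection and dominance are given apart: a low-level row can be seen in many cells without leading in them. Trav7-5 was found in 166 WT, 82 KO, 531 NCD and 126 HFD cells, and Trav7-3 in 35 WT, 449 KO, 175 NCD and 126 HFD cells. Trav12-2 was detected in 137 WT, 462 KO, 50 NCD and 134 HFD cells, and Trav10 in 38 WT, 172 KO, 409 NCD and 111 HFD cells. Trav7-3 and Trav12-2 were thus highest in KO, and Trav4-4-dv10, Trav7-5 and Trav10 in NCD. By contrast, Trav13-1 lay between 3.09% and 4.07% of cells in all 4 conditions, the narrowest range among the 10 most widely detected segments.

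**Figure D1:**
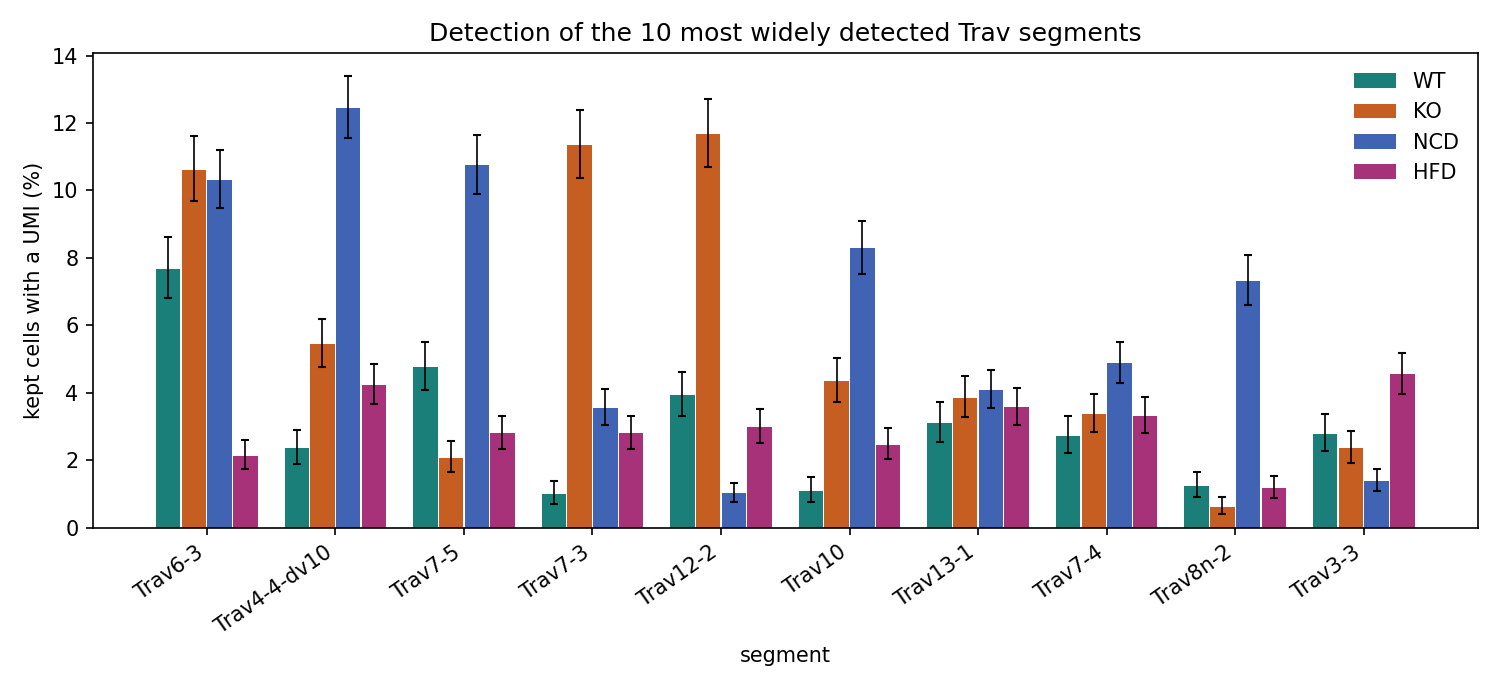
Share of kept cells (%) with a UMI of each of the 10 most widely detected segments, by condition, with exact 95% intervals of counting error as error bars. Trav7-3 and Trav12-2 stand highest in KO (11.3% and 11.7%), Trav4-4-dv10, Trav7-5, Trav10 and Trav8n-2 in NCD (12.5%, 10.8%, 8.28% and 7.31%), while Trav13-1 stays between 3.09% and 4.07%.

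The first comparison asked how V alpha segments differ between VAT Treg cells with and without Srebf2, which encodes SREBP2, a master regulator of cholesterol synthesis genes. A segment was counted as different when the share of cells with a UMI differed by 1.5-fold or more and the higher condition had at least 20 cells. This counts sizes of difference and tests nothing. In KO cells 20 of 55 segments were higher and 11 lower, against 4.15% higher and 1.91% lower of all 11988 genes counted by the same rule. The median KO to WT ratio was 1.32 over the segments and 1.03 over all genes.

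Trav7-3 (ENSMUSG00000096908, chromosome 14, 53443314 to 53443839 on GRCm38.p6) had 2400 UMIs in 449 KO cells and 115 UMIs in 35 WT cells. It was found in 11.3% of KO and 1.00% of WT cells, a ratio of 11.3 (8.02 to 16.5). Thinned to equal depth the shares were 10.6% and 0.660%. Trav12-2 (53616397 to 53616914) was found in 11.7% of KO and 3.93% of WT cells, a ratio of 2.98 (2.45 to 3.63). As the leading segment, however, Trav12-2 was not higher in KO: it led in 4.39% of KO and 5.25% of WT cells with a leading segment, a usage ratio of 0.835 (0.640 to 1.09). The KO cells with these 2 segments were largely the same cells, as described with the co-detected segments. Trav16n was found in 194 KO and 26 WT cells, a ratio of 6.58 (4.36 to 10.3).

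The copies Trav9d-1 and Trav6d-4 had the other high ratios, 9.92 (3.62 to 38) on 45 against 4 cells and 6.18 (2.16 to 24.2) on 28 against 4 cells. Trav9d-1 led in only 5 of its 45 KO cells. Trav10 and Trav4-4-dv10 were also higher in KO, with ratios of 3.99 (2.80 to 5.83) and 2.31 (1.79 to 3.02). The lowest ratios were those of Trav7d-4 at 0.243 (0.0961 to 0.546), Trav13n-1 at 0.294 (0.139 to 0.578), Trav6-4 at 0.303 (0.180 to 0.493) and Trav12-1 at 0.331 (0.190 to 0.555). Among the more abundant segments, Trav7-5 was found in 4.76% of WT and 2.07% of KO cells and Trav1 in 4.96% of WT and 3.11% of KO cells. When the d, n and unlettered copies of a segment were summed, Trav7-4 with its copies had a log2 ratio of 0.088 and Trav6-4 with its copies one of -0.66. The log2 ratios of the single rows Trav7d-4 and Trav6d-4 thus changed sign under that sum, the former to nearly equal shares. The sums also hold the unlettered rows. Trav7-4 was found in 95 WT and 133 KO cells, against 29 and 8 for Trav7d-4.

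The second comparison asked how V alpha segments differ with a high-fat diet. In HFD cells 38 of 65 segments were higher and 16 lower, against 11.3% higher and 14% lower of all 12579 genes counted. The median HFD to NCD ratio was 2.16 over the segments and 0.936 over all genes, although fewer HFD than NCD cells had any Trav UMI. Of the 16 lower segments, all but Trav11n and Trav6d-3 were found in 1.72% or more of NCD cells. Of the 38 higher segments, the one most frequent in NCD was Trav3-3, at 1.38% of cells. This order is not independent of the rule. The NCD share is the denominator of the ratio, and a lower call needs at least 20 NCD cells.

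Trav8n-2 (53345961 to 53346424) had 1796 UMIs in 361 NCD cells and 166 UMIs in 53 HFD cells, which is 7.31% and 1.17% of cells and a ratio of 0.161 (0.118 to 0.215). Trav10n was found in 6.58% of NCD and 1.33% of HFD cells, a ratio of 0.202 (0.151 to 0.267). Trav13n-4 was found in 258 NCD and 48 HFD cells, a ratio of 0.204 (0.146 to 0.278), but it led in only 29 NCD and 25 HFD cells. Trav6-3 stood at 10.3% in NCD and 2.13% in HFD, a ratio of 0.206 (0.164 to 0.257). It led in 75 NCD and 38 HFD cells, a usage ratio of 0.634 (0.417 to 0.948) that lies nearer to 1. Trav7-5, Trav14-1, Trav10 and Trav4-4-dv10 had ratios of 0.260, 0.258, 0.297 and 0.340. The near-copies Trav8d-2 and Trav8n-2 were found together in 225 NCD cells, of 251 and 361. Trav8d-2 led in 59 NCD and 41 HFD cells, a usage ratio of 0.869 (0.569 to 1.32).

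At the other end, Trav6-1 was found in 27 HFD and 0 NCD cells, at least 9.85-fold higher when the NCD count is set to a floor of 3 cells, and with a lower limit of 7.48 by the exact interval. Trav3-4 was found in 21 HFD cells and 1 NCD cell, a ratio of 23.0 with a wide interval (3.70 to 950). Trav6d-5 and Trav7-1 had ratios of 8.10 (3.18 to 26.4) and 6.70 (3.15 to 16.4). Trav3-3, at 4.54% of HFD and 1.38% of NCD cells, was the most widely detected of the higher segments, with a ratio of 3.30 (2.50 to 4.41). Trav13-1, at 3.57% and 4.07%, differed little.

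**Figure D2:**
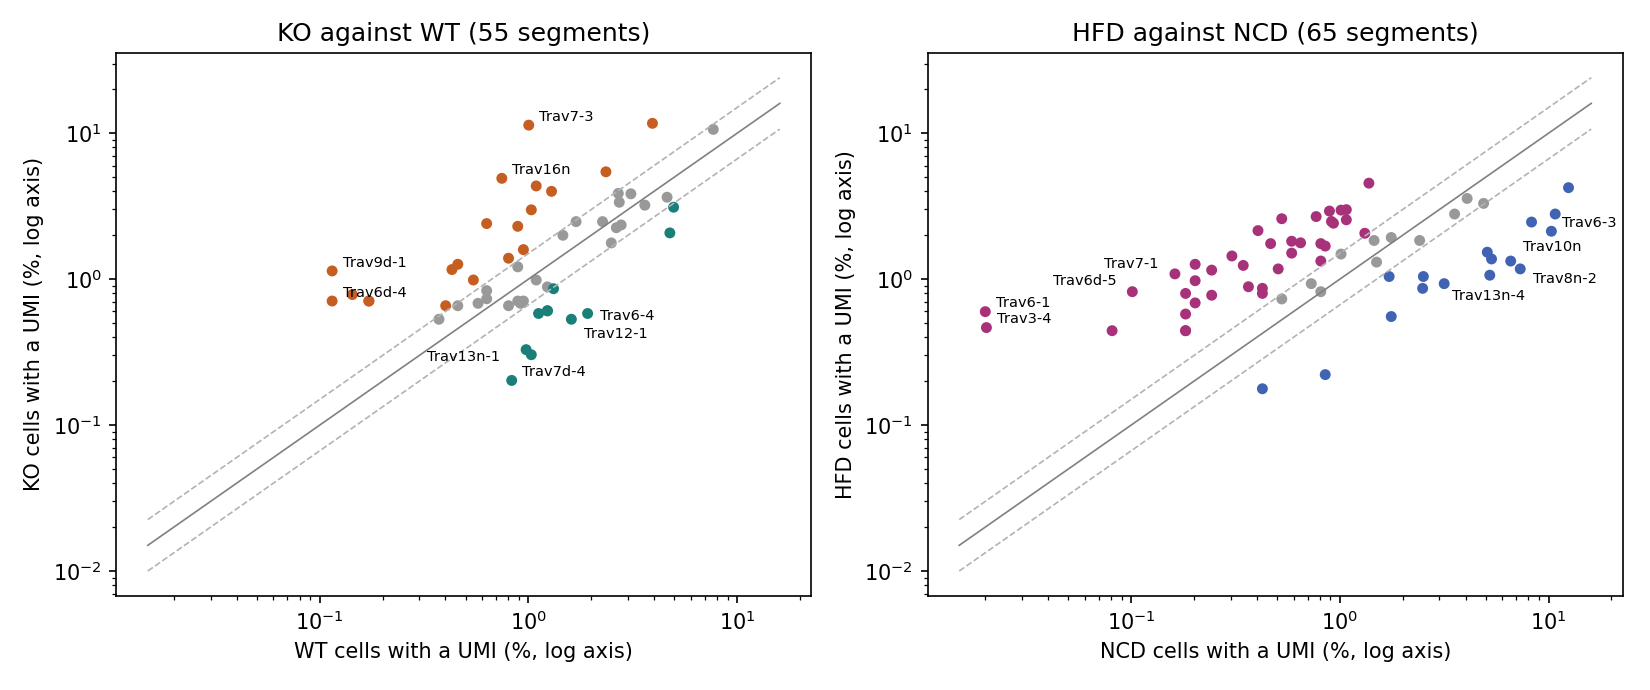
Share of cells with a UMI for each segment with at least 20 cells in either condition, KO against WT (55 segments) and HFD against NCD (65 segments), on log axes. The solid line marks equal shares and the dashed lines 1.5-fold, coloured points lie past them with at least 20 cells in the higher condition, and Trav6-1, at 0 NCD cells, is drawn at 0.02%. HFD points above the lines sit at low NCD shares and points below at high ones, which is not independent of the rule, as the NCD share is the denominator.

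Within a condition, cells with and without a UMI of Il1rl1 come from the same mice and the same library. Il1rl1 encodes ST2, the receptor for interleukin-33, which marks a tissue-adapted part of VAT Treg cells. An Il1rl1 UMI was found in 71.0% of WT and 58.7% of KO cells, and in 78.1% of NCD and 17.6% of HFD cells, against 1.72 to 5.88% of the B cell droplets. Droplets with Lyz2 and a macrophage gene and no Cd3 UMIs had one in 1 of 6 in WT, 0 of 10 in KO, 4 of 18 in NCD (22.2%) and 1 of 13 in HFD (7.69%, 0.195 to 36.03%), at medians of 6466.5 UMIs or more. The HFD share of kept cells thus lies within the interval of those few droplets. Il1rl1-positive cells had more UMIs, with medians of 3802 against 3046 in WT, 3991.5 against 3166 in KO, 4221 against 3103 in NCD and 3772 against 3091 in HFD. The detection of any gene is favoured by that difference in depth. Segment usage, the share of cells in which a segment has the most Trav UMIs, is less exposed to it and is given for that reason. A leading segment was assigned in 2094 WT, 2757 KO, 3637 NCD and 2908 HFD cells, and 201, 314, 377 and 308 cells with a tie were left out.

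By the same count of detection, 7 of 34 segments were higher in Il1rl1-positive WT cells and 3 lower, against 14.4% and 2.39% of all genes. In KO 16 of 34 were higher and 5 lower (all genes 14.3% and 3.26%), in NCD 17 of 37 and 7 (22.6% and 2.58%), and in HFD 4 of 59 and 11 (9.76% and 4.73%). At 2000 UMIs per cell, with the arms as before thinning, 6 of 20 segments were higher and 5 lower in WT, and 13 of 27 and 6 in KO. In NCD the counts were 12 of 27 and 1, and in HFD 1 of 49 and 21. With the arms recounted after thinning, they were 5 of 19 and 6 in WT, and 8 of 25 and 6 in KO. In NCD they were then 5 of 30 and 4, and in HFD 1 of 49 and 20. The NCD counts thus depended on how the arms were set. Shares over all genes were not counted at that depth. A call needs at least 20 cells in the higher arm, and the arms were unequal. Unthinned, HFD had 793 Il1rl1-positive and 3719 Il1rl1-zero cells, and NCD 3855 and 1083. Fewer segments can reach 20 cells in the smaller arm, so the split into higher and lower follows in part from arm size. Before thinning, Trav6-3 was the segment that was higher in Il1rl1-positive cells of all 4 conditions, and Trav5-4 was lower in 3 of them. At equal depth, with the arms as before thinning, Trav6-3 no longer met the rule in WT, at 5.13% against 3.62%. Nor did Trav6-3 in HFD, with 15 Il1rl1-positive cells, or Trav5-4 in NCD, with 17 Il1rl1-zero cells. The usage ratio of Trav6-3 in KO was 1.18 (0.658 to 2.19).

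Trav1, the leading segment of WT, led in 9.86% of Il1rl1-positive and 3.58% of Il1rl1-zero cells with a leading segment, a usage ratio of 2.75 (1.75 to 4.53). Trav7-5 led in 7.91% and 3.09%, a ratio of 2.55 (1.56 to 4.39), and Trav10n in 2.09% and 0.489%, a ratio of 4.29 (1.34 to 21.9). The segments with the lowest WT usage ratios were Trav5-4 at 0.346, Trav9-1 at 0.380 and Trav7-3 at 0.456, each led by 10 to 12 cells in either arm. In KO the order was another. Trav7-3 led in 14.7% of Il1rl1-positive and 4.64% of Il1rl1-zero cells, a ratio of 3.17 (2.33 to 4.39). Trav4-3 had a ratio of 2.83 (1.40 to 6.30), whose log2 value turned to -0.35 when cells were thinned and the arms recounted, and to 0.78 when the arms were kept. Trav6n-5 had a ratio of 2.70 (0.990 to 9.15), while Trav8n-2, Trav9n-4 and Trav3-3 had ratios of 0.275, 0.338 and 0.391.

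In NCD the high ratios belonged to Trav10n at 2.50 (1.67 to 3.9), Trav7-5 at 2.48 (1.79 to 3.52) and Trav7-3 at 2.33 (1.34 to 4.38). Trav7-5 led in 13.8% of Il1rl1-positive NCD cells, more than any other segment. Trav9-2, Trav6-7-dv9 and Trav3-3 had the lowest ratios, 0.0818 (0.0233 to 0.237), 0.109 (0.0411 to 0.264) and 0.164 (0.0658 to 0.390). In HFD the ratios above 1 rested on few cells: Trav6d-4 at 2.96 (1.14 to 7.22), Trav10n at 2.76 (1.33 to 5.52) and Trav7-6 at 2.71 (1.17 to 5.94) led in 9, 14 and 11 Il1rl1-positive cells. Trav12-3, Trav12n-3 and Trav5-1 were lowest there, at 0.260, 0.352 and 0.398. Trav10n lay above 1 in WT, NCD and HFD and at 0.642 (0.284 to 1.45) in KO, an interval that includes 1.

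Seen from the segment, the Il1rl1-positive share of the cells it led ranged widely. Over 30 WT segments with at least 20 leading cells it ran from 45.5% for Trav5-4 to 91.2% for Trav10n, with a median of 68.2%. Over 37 KO segments the range was 30.0% for Trav8n-2 to 83.2% for Trav7-3, with a median of 59.6%. In NCD (34 segments) it reached from 25.0% for Trav9-2 to 91.1% for Trav10n, median 77.6%, and in HFD (54 segments) from 5.00% for Trav12-3 to 37.5% for Trav6d-4, median 15.1%. The highest HFD segment, on 24 leading cells (18.8 to 59.4%), thus lay above the lowest of NCD and of KO. Those rested on 20 leading cells each (8.66 to 49.1% and 11.9 to 54.3%). The highest HFD segment lay below the lowest WT segment, on 22 leading cells (24.4 to 67.8%). Its interval overlapped with each of these.

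**Figure D3:**
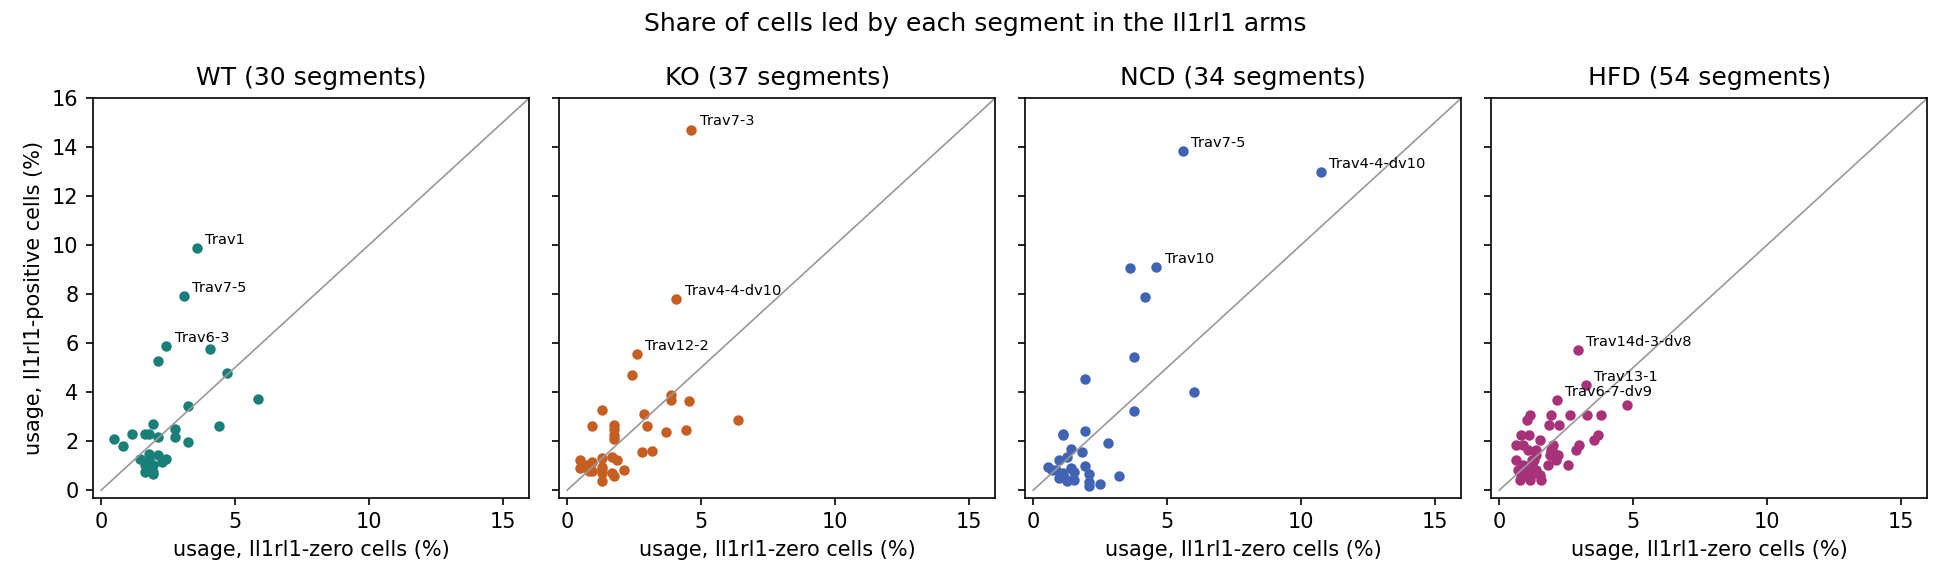
Usage (%) of each segment in Il1rl1-positive (vertical axis) against Il1rl1-zero cells (horizontal axis) of each condition, for segments leading in at least 20 cells, with the line of equal usage. Trav1 in WT (9.86%), Trav7-3 in KO (14.7%) and Trav7-5 in NCD (13.8%) stand above the line, while no HFD segment passes 5.71%.

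How evenly cells were spread over segments was summarised by the effective number, an inverse Simpson index that gives the number of equally used segments with the same chance of drawing the same segment in a pair of cells. It was 32.0 in WT and 28.8 in KO, 16.7 in NCD and 48.7 in HFD. In Il1rl1-positive cells it was 26.6 in WT and 21.4 in KO, 14.3 in NCD and 48.4 in HFD, and in Il1rl1-zero cells 43.6, 39.0, 29.8 and 47.8. The Il1rl1-positive arm thus had the lower number in WT, KO and NCD, and the arms of HFD lay within 1 segment of each other. With cells thinned and arms kept, the numbers were 27.8 and 44.1 in WT, 20.2 and 40.02 in KO, 14.6 and 28.7 in NCD, and 41.6 and 47.8 in HFD. The 5 most used segments led in 34.7% of Il1rl1-positive and 22.6% of Il1rl1-zero WT cells, 36.6% and 24.1% in KO, 52.9% and 31.1% in NCD, and 20.2% and 19.1% in HFD.

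The leading segment of each condition was Trav1 in WT with 8.02% of usage (6.89 to 9.27%), Trav7-3 in KO with 10.8% (9.64 to 12%), and Trav4-4-dv10 in both NCD with 12.5% (11.5 to 13.7%) and HFD with 4.54% (3.81 to 5.36%). No segment passed 5% in HFD, whereas 3 did in WT, 2 in KO and 6 in NCD. The similarity of usage between conditions was measured by the Morisita index, which is 1 for equal usage and 0 for no shared segment. It was 0.661 between KO and WT, 0.568 between HFD and NCD, and 0.524 between WT and NCD, which come from separate experiments and differ in strain and age range. Among Il1rl1-positive cells these indices were 0.518, 0.519 and 0.479, and among Il1rl1-zero cells 0.893, 0.830 and 0.754. Each of the 3 pairs of conditions was thus less alike in the Il1rl1-positive arm. The arms of a condition had indices of 0.832 in WT and 0.781 in KO, 0.834 in NCD and 0.941 in HFD.

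**Figure D4:**
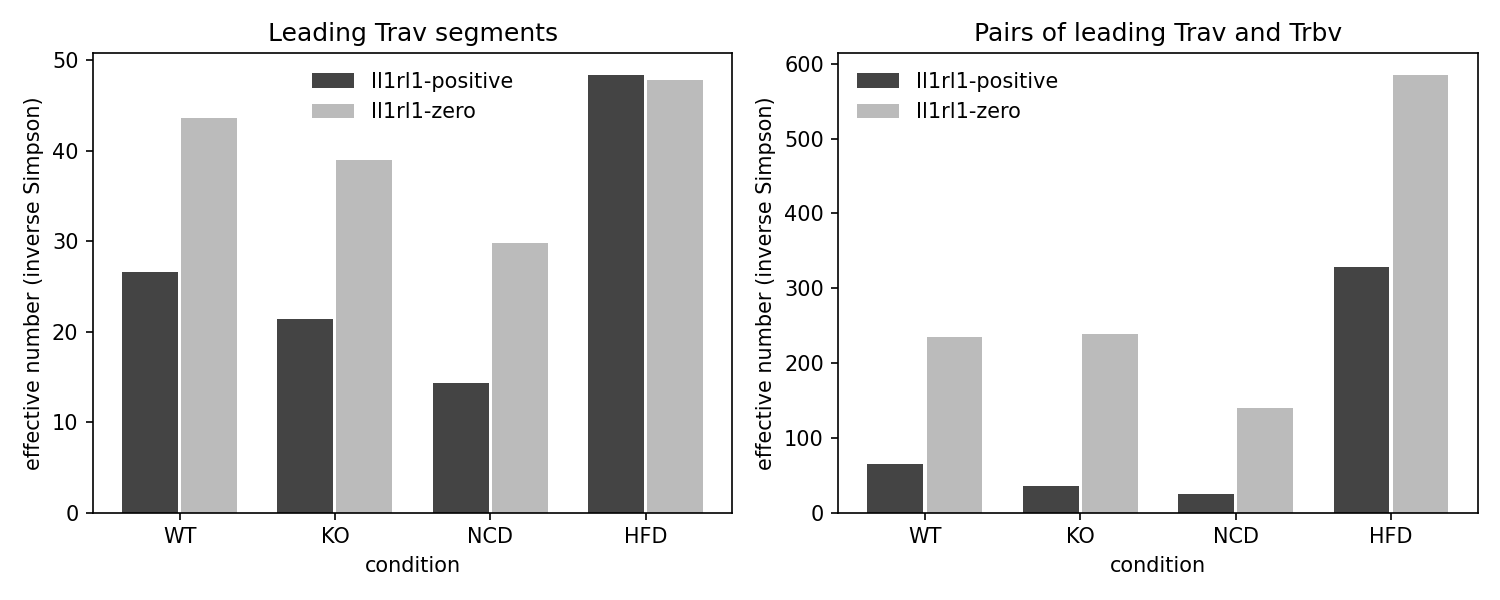
Effective number (inverse Simpson index) of leading Trav segments and of pairs of leading Trav and Trbv segments, in Il1rl1-positive and Il1rl1-zero cells of each condition. Segment numbers in Il1rl1-positive cells are lower in WT, KO and NCD (26.6, 21.4 and 14.3) than in HFD (48.4), and pair numbers are lower in the Il1rl1-positive arm of all 4 conditions.

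Pairing each cell's leading Trav with its leading Trbv narrows the groups further, as an incomplete stand-in for clones. Both were available in 1727 WT, 2342 KO, 3000 NCD and 2614 HFD cells. The effective number of pairs was 99.3 in WT and 73.1 in KO, 31.8 in NCD and 595 in HFD. Pairs that each held over 1% of cells numbered 15 in WT and 14 in KO, 14 in NCD and 0 in HFD, and together held 30.5%, 31.7%, 56.4% and 0% of cells. In Il1rl1-positive cells the effective number of pairs was 65.3 in WT and 36.2 in KO, 24.2 in NCD and 329 in HFD, and in Il1rl1-zero cells 235, 238, 140 and 585.

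When each distinct pair was counted once, whatever its number of cells, the spread over Trav segments became more alike. The effective number of segments over distinct pairs was 65.8 in WT (506 pairs), 64.4 in KO (657), 58.4 in NCD (499) and 70.9 in HFD (905). Over Il1rl1-positive and Il1rl1-zero pairs it was 64.2 and 58.7 in WT, 58.4 and 60.2 in KO, 53.9 and 53.2 in NCD, and 61.9 and 68.8 in HFD. The segment with the most distinct pairs held 2.21 to 3.41% of them in the 4 conditions. This count differs from usage in that frequent and rare pairs weigh the same, so a pair seen in a single cell counts as much as the largest. With 35 Trbv rows, a segment can hold at most 35 distinct pairs. A more even spread therefore follows in part from the way of counting.

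In WT the most frequent pair was Trav1 with Trbv20, found in 107 cells, 6.20% of those with both chains (5.11 to 7.44%), and in 0 cells of each of the other 3 conditions. It made up 77.0% of the WT cells led by Trav1 that had a leading Trbv, and 92.5% of its cells were Il1rl1-positive (85.8 to 96.7%). Trav12-2 with Trbv12-2 followed with 54 cells, 90.7% of them Il1rl1-positive. Trav8-1 with Trbv16 had 48 cells, of which 58.3% were Il1rl1-positive (43.2 to 72.4%). The 3 leading WT pairs thus did not share 1 level of Il1rl1.

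The leading KO pair was Trav7-3 with Trbv5, in 200 KO cells (8.54%, 7.44 to 9.75%), 0 WT, 2 NCD and 4 HFD cells, with 92.0% Il1rl1-positive. Trav4-4-dv10 with Trbv16 had 97 KO cells and 1 WT cell, 92.8% Il1rl1-positive, and Trav3-1 with Trbv5 had 63 KO and 2 WT cells, 52.4% Il1rl1-positive. Without the most frequent pair of each condition, Trav7-3 kept a log2 KO to WT ratio of 2.76, against 3.50 with it. The Morisita index of KO and WT was then 0.797. That step left out only cells in which both segments of the pair led. Of the 449 KO cells with Trav7-3, 377 (84.0%) also had Trav12-2, and not all of these were left out. The remaining ratio therefore cannot separate Trav7-3 from that combination.

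In NCD, Trav7-5 with Trbv31 had 247 cells (8.23%), Trav8n-2 with Trbv31 217 cells and Trav10 with Trbv5 204 cells, of which 96.8%, 89.9% and 94.6% were Il1rl1-positive. The same pairs were found in 5, 2 and 5 HFD cells. The next NCD pairs were Trav4-4-dv10 with Trbv5 (169 cells) and Trav4-4-dv10 with Trbv26 (167 cells), so the most used NCD segment was divided between a pair of beta partners of nearly equal size. In HFD the leading pair, Trav7d-3 with Trbv3, had 23 cells (0.880%, 0.559 to 1.32%), of which 0 were Il1rl1-positive, which allows up to 14.8%. Trav16n with Trbv12-2 had 18 cells with 1 Il1rl1-positive, and Trav14-3 with Trbv16 had 17 with 2. Among the 10 most frequent HFD pairs, Trav14d-3-dv8 with Trbv31 was the exception, with 13 of 15 cells Il1rl1-positive. It was chosen for mention after its values were seen.

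**Figure D5:**
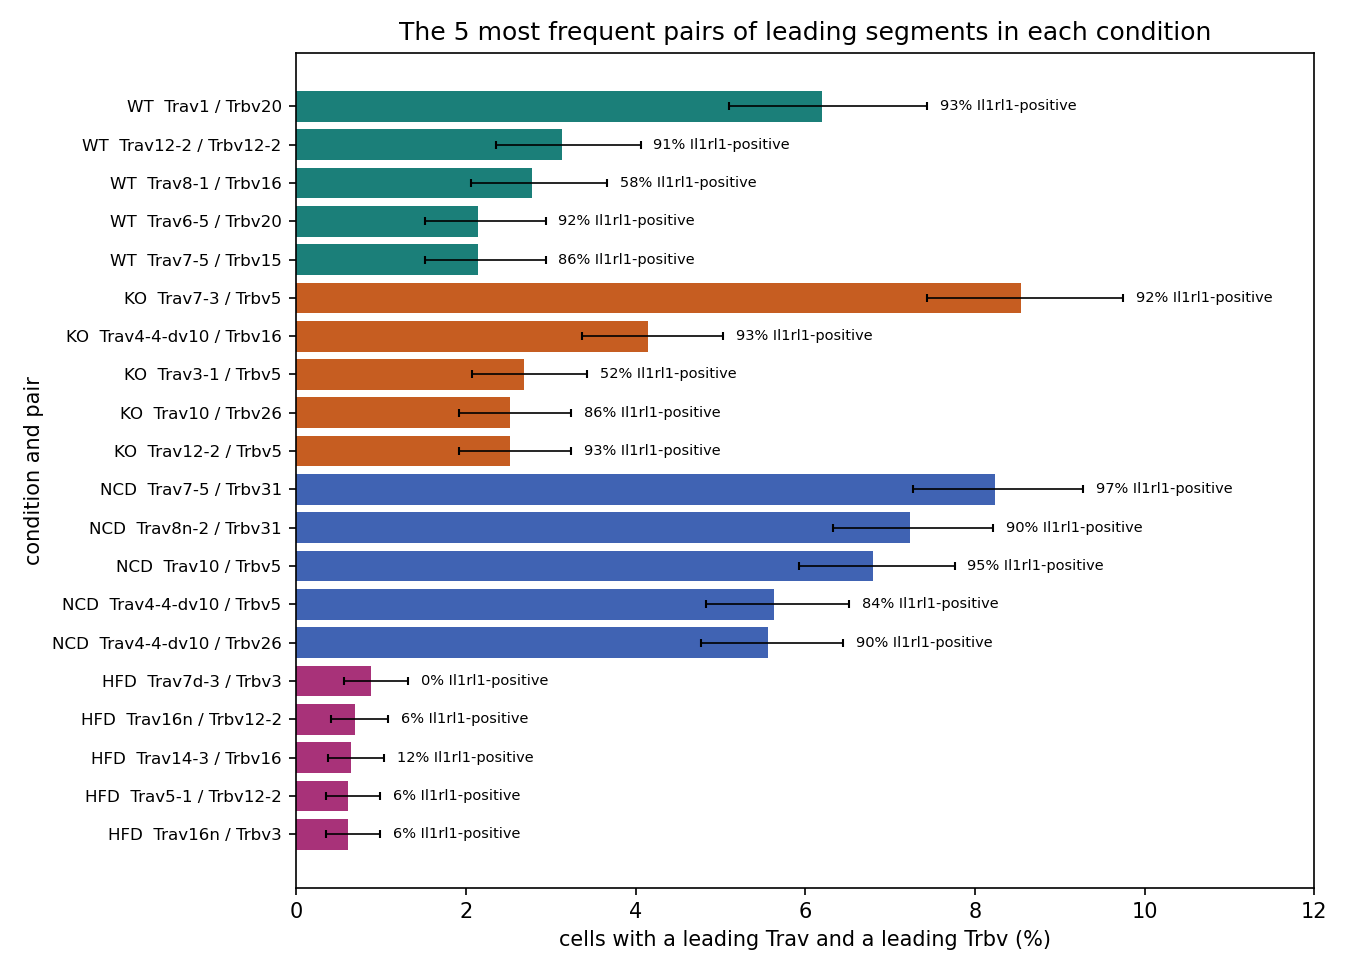
The 5 most frequent pairs of leading Trav and Trbv in each condition, as the share (%) of cells with both, with exact 95% intervals and the Il1rl1-positive share of the pair's cells beside each bar. The pairs of WT, KO and NCD reach up to 8.54%, and the HFD pairs stay at or under 0.880%.

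Other genes of the cells in these pairs were read as summed CPM. Klrg1, a surface receptor of differentiated Treg cells, stood at 1504 CPM in Trav1 with Trbv20 and 636 CPM in Trav8-1 with Trbv16. All WT cells had 1099 CPM, Il1rl1-positive WT cells 1270 CPM and Il1rl1-zero WT cells 576 CPM. Pparg, the nuclear receptor of VAT Treg cells, stood at 171 and 30.6 CPM in these pairs, while Foxp3 stood at 293 and 318 CPM. For Pparg, all WT cells had 117 CPM, Il1rl1-positive WT cells 137 CPM and Il1rl1-zero WT cells 58.6 CPM. The KO pair Trav3-1 with Trbv5 had 159 CPM of Cxcr3, a chemokine receptor of type 1 cells, and 329 CPM of the granule gene Nkg7. Trav7-3 with Trbv5 had 3.58 and 47.4 CPM, all KO cells 126 and 149 CPM, and Il1rl1-positive KO cells 48.7 and 56.3 CPM. Il1rl1-zero KO cells had 267 and 320 CPM, and only 52.4% of the cells of Trav3-1 with Trbv5 were Il1rl1-positive. Tcf7, a transcription factor of less differentiated T cells, was at 1.69 CPM in NCD Trav7-5 with Trbv31. All NCD cells had 32.0 CPM of Tcf7 and Il1rl1-positive NCD cells 12.4 CPM. In HFD Trav7d-3 with Trbv3 it was at 235 CPM, against 258 CPM in all HFD cells and 300 CPM in Il1rl1-zero HFD cells. In CPM of Tcf7, the NCD pair thus lay below its condition, and the HFD pair close to its own. Tcf7 was found in 65.2% of the 23 cells of that HFD pair and 47.3% of all HFD cells. For other genes the HFD pair lay further off, with 451 CPM of Cxcr3 against 185 in all HFD cells. Foxp3 stood at 84.9 against 162 CPM. The cells of a pair may be a few clones of 1 mouse, and which mice they came from cannot be told apart.

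More than 1 segment was common in a cell. Among cells with a Trav UMI, 32.5% in WT and 49.2% in KO, and 43.9% in NCD and 38.7% in HFD had 2 or more segments, and the median share of UMIs in the leading segment of such cells was 66.7% in every condition. At 2000 UMIs per cell those shares were 23.4%, 37.5%, 27.0% and 26.8%. Cells with 2 or more segments had medians of 3859, 4123.5, 4581.5 and 4009 UMIs, against 3636, 3475, 3831 and 3163 in cells with 1. Droplets that held both hashtags were removed by the 90% rule, but doublets within a condition remain, and their part in these shares was not tested.

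Certain segments recurred together. In KO, Trav7-3 and Trav12-2 were found together in 377 cells, 84.0% of the 449 with Trav7-3 and 81.6% of the 462 with Trav12-2. Of the 290 of these cells with a leading Trbv, 91.0% had Trbv5, and 90.2% of the 377 were Il1rl1-positive. These cells held 2157 UMIs of Trav7-3 and 1402 of Trav12-2, and the segments lie 173 kb apart. Trav6-3, 14.6 kb from Trav7-3, was found with it in 208 KO cells, at 340 against 1279 UMIs. Trav1 and Trav16n shared 93 KO cells, 75.6% of those with Trav1, with Trbv13-1 in 84.5% of the cells with a leading Trbv.

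In NCD, Trav13n-4 and Trav7-5 shared 227 cells, 88.0% of those with Trav13n-4, with Trbv31 in 87.6% of the cells with a leading Trbv and with 97.4% Il1rl1-positive. Trav10 and Trav4-4-dv10 shared 108 cells, 89.6% of those with a leading Trbv carrying Trbv5, and Trav14-1 and Trav16 shared 77, of which 71 had a leading Trbv, 91.5% of these Trbv12-2. The most frequent combination in WT, Trav6-4 with Trav9-4, was found in 33 cells, and that in HFD, Trav3-3 with Trav9-4, in 26. In the latter the most frequent beta segment, Trbv15, was in 16.7% of the cells with a leading Trbv, whereas Trav14-3 with Trav19, also in HFD, had Trbv16 in 15 of 15. In NCD, Trav6-3 with Trav4-4-dv10 had Trbv5 in 43.5%, so combinations with mostly 1 partner and with several occurred under both diets. The numbers of detected cells of combined segments, such as Trav7-3 and Trav12-2, therefore do not count separate cells.

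Summed by family, the number after Trav, the 15 rows of family 6 led in 19.4% of WT and 12.4% of KO cells, and in 7.18% of NCD and 11.9% of HFD cells. Family 7 (13 rows) led in 13.5%, 19.1%, 22.5% and 15.1%. Family 10 (3 rows) stood at 16.4% in NCD and at 3.10 to 5.15% in the other conditions, and family 8 (5 rows) at 11.6% in NCD and 3.88 to 5.91% elsewhere. The single-row family 1 stood at 8.02% in WT and 0.275% in NCD. Rows of the n copy led in 13.1% of WT and 13.4% of KO cells, and in 19.9% of NCD and 14.03% of HFD cells, and rows of the d copy in 9.22%, 7.87%, 5.36% and 15.2%. The d copy was thus highest in HFD and the n copy in NCD.

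The genes that work with the alpha chain were read from a list of 25, of which 23 are rows of the matrices and 19 reached 5 CPM in either condition. Between KO and WT 0 of the 19 were higher or lower by 25% or more of the lower level, where 5.43% of all measured genes were higher and 4.90% lower. Between HFD and NCD 14 of 19 were higher and 0 lower, where 23.6% of all genes were higher and 15.9% lower. The median HFD to NCD ratio was 1.37 over the list and 1.06 over all genes. The alpha constant gene Trac stood at 144 CPM in WT and 156 in KO, 114 in NCD and 167 in HFD, with an HFD to NCD ratio of 1.47 (1.39 to 1.55). The beta constant genes Trbc1 and Trbc2 had ratios of 2.22 and 1.93, the kinase gene Zap70 1.71 and the co-receptor gene Cd28 1.85. The adaptor gene Lcp2 stood at 0.910. Rag1 and Rag2, which cut the segments for joining, were at 0 UMIs in all 4 conditions. Trac and its Trbc partners were thus higher in HFD, where the summed Trav level, 714 against 770 CPM, was not.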

How the data were processed

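Raw UMI counts per gene and barcode were deposited, and hashtag counts are further rows of each matrix, per the file headers. The header of the Srebf2 pool names Cell Ranger 7.1.0, that of the diet pool 7.0.1, and the submitters' processing notes name 7.0.1 and mm10. Other filters of the authors were not given in the sources used here. Of the 9036 and 11456 barcodes, those with 500 or more genes, under 10% mitochondrial counts, 90% or more of hashtag counts from 1 hashtag and no UMI of Cd79a, Lyz2 or Cd8a were kept, which left out 186 WT, 153 KO, 579 NCD and 297 HFD cells by the last rule. No doublet caller was run. The segments and gene lists, and the rule that filters cells, were chosen with earlier results of these data known.

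Each cell's leading segment is the Trav row with the most UMIs, ties left out. Effective numbers use the unbiased inverse Simpson index and overlaps the Morisita index with unbiased terms. Shares carry Clopper-Pearson intervals and ratios carry exact intervals from splitting both counts binomially. Segments named are the 10 with the most cells, the 4 highest and 4 lowest detection ratios per comparison, the 3 highest and 3 lowest usage ratios per condition among those with 20 or more leading cells, the leading segments and the 3 most frequent pairs. Further segments were named after their values were seen. A further gene of the receptor list is not reported here on its own. Calculations used Python 3.11.15, numpy 2.4.6, scipy 1.17.1 and pandas 2.3.3, and were tested on simulated data. Alternatives were thinning to 2000 UMIs, 50 or more hashtag counts, no filter on Cd79a, Lyz2 and Cd8a, cells with a Foxp3 UMI, 2 or more UMIs for a segment or for Il1rl1, under 5% mitochondrial counts, summed copies, the most frequent pair left out, and 2-fold in place of 1.5-fold. Thinning with the Il1rl1 arms kept was added after seeing the data.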

Additional observations from a re-analysis of the deposited data

Results flagged for a closer look

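Trav7-5 usage went opposite ways in the Il1rl1 arms of the Srebf2 pool. The ratio of Il1rl1-positive to Il1rl1-zero usage was 2.55 (1.56 to 4.39) in WT, on 117 and 19 leading cells, and 0.556 (0.316 to 0.973) in KO, on 26 and 30. Each condition is 1 pooled sample, and the difference between them was not tested. In WT, Trav7-5 was paired with Trbv15 in 37 cells and with Trbv12-1 in 31, and each of these pairs was found in 1 KO cell.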

How the results depend on the processing

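Depth limits single segments: thinning to 2000 UMIs moved 5 and reversed 1 of 38 values of named segments, while summing duplicated copies moved 10 and reversed 2 of 39. No replicate could be left out, since each condition is 1 pooled sample. No paired analysis was possible because each condition is 1 pooled sample. Of 290 alternative values of summary results, 252 stayed within their main interval or tolerance (1.5-fold for counts and effective numbers, 0.05 for the Morisita index) and 38 moved, and the causes were not tested. Of 331 values for named segments, 301 stayed within, 27 moved and 3 reversed, which means a change of sign from a difference of 1.5-fold or more.

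Under thinning to 2000 UMIs, the shares of cells with a Trav UMI were 53.0% in WT and 67.1% in KO, 68.3% in NCD and 61.3% in HFD. The Morisita index of the arms was then 0.863 in KO and 0.938 in NCD, 9 segments differed between the NCD arms, and the log2 usage ratio of Trav4-3 in KO reversed to -0.35. With the arms kept, 13 segments differed between the NCD arms and the index of the HFD arms was 0.873.

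In cells with a Foxp3 UMI the shares were 79.5% in KO, 83.0% in NCD and 75.6% in HFD, the index of the KO arms 0.729 and the NCD arm count 15. Without the filter on Cd79a, Lyz2 and Cd8a the NCD share was 79.1%. With 2 or more UMIs required for a segment, the shares were 41.4% in WT and 58.0% in KO, 60.6% in NCD and 47.2% in HFD, leading usage was 13.6% in KO (Trav7-3) and 14.1% in NCD (Trav7-5), and the arm counts were 12 in KO and 15 in NCD. With 2 or more UMIs required for Il1rl1, the HFD arm count was 23 and the index of the WT arms 0.778.

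With duplicated copies summed, effective numbers were 30.3 in HFD, 28.7 and 30.2 in its Il1rl1-positive and Il1rl1-zero cells and 28.8 in Il1rl1-zero WT cells. Leading usage was 7.1% in HFD (Trav14-3) and 16.3% in NCD (Trav10), the KO and WT index was 0.769, that of the KO arms 0.840, and 31 segments differed between HFD and NCD. The log2 KO to WT ratio changed sign, to -0.66 for Trav6d-4 and to 0.088, nearly equal shares, for Trav7d-4. Without the most frequent pair, leading usage was 6.84% in KO (Trav4-4-dv10) and 6.84% in WT (Trav7-5), the KO and WT index was 0.797 and that of the KO arms 0.878.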
